A study of Rattus norvegicus with 24 samples.

Results

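Glutathione transferases were followed in the lungs of rats that breathed cigarette smoke, mineral dust or both. The 10 genes were Gsta3, Gsta4, Gstm1, Gstm2, Gstp1, Gsto1, Gstt1, Gstk1, Mgst1 and Mgst2, taken by gene symbol from the 14217 genes of the array, and all 10 were measured. Each was represented by its brightest probe set that carries a single gene symbol. RNA came from the right caudal lung lobe of adult male Sprague-Dawley rats, aged 17 weeks in the labels, with 1 array per rat and 4 rats in each of 6 groups.

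Every rat went through both exposure routes, so the controls breathed clean air in the nose-only apparatus and again in the whole-body chamber. The air group had air by both routes. The sand and silica groups had air by nose and Iraqi sand or manufactured silica at 1 mg/m3 in the chamber. The smoke group had cigarette smoke by nose, with 0.48 mg/L of wet total particulate matter, and air in the chamber. The remaining groups, smoke plus sand and smoke plus silica, had both. Smoke sessions lasted 3 hours on each of 5 days per week; the treatment label gives 5 weeks of them and the series text 6. Chamber exposure took 18 hours on each of 7 days per week and lasted 2 weeks. The series text speaks of 102 rats, 17 per group, and the arrays of 4 per group are described here. Rats are named by their label numbers.

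Glutathione transferases join the thiol of glutathione to electrophiles, which makes the products more soluble and ready for export as mercapturates. The cytosolic enzymes fall into classes named alpha (Gsta), mu (Gstm), pi (Gstp), omega (Gsto) and theta (Gstt), the kappa enzyme (Gstk1) sits in mitochondria and peroxisomes, and the Mgst proteins are a separate membrane-bound family. In the airway they are known for handling reactive aldehydes and epoxides of smoke, and several are targets of the transcription factor NRF2, which binds antioxidant response elements, and of the aryl hydrocarbon receptor.

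The sequence just before the transcription start is shown for 5 members: Gsta3, Gstm1 and Gsto1, which rose under smoke, and Gstm2 and Gstp1 of the mu and pi classes, which did not pass the test. Sequences are from RefSeq on GRCr8, 250 bases up to the start, 5′ to 3′ on the gene's strand. Capitals mark the antioxidant response element core TGACNNNGC or the aryl hydrocarbon receptor core GCGTG, found on either strand. Of the 10 members, 8 matched the RefSeq table by symbol, with 9 promoters in all because Gsta3 has 2 entries.
Gsta3, first entry, chr9:31154739-31154988, plus strand: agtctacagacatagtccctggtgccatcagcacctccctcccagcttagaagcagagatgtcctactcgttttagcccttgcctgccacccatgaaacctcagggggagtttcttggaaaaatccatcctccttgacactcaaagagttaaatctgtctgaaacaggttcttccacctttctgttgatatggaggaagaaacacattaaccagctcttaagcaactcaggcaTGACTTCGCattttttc
Gstm1, chr2:198343384-198343633, minus strand: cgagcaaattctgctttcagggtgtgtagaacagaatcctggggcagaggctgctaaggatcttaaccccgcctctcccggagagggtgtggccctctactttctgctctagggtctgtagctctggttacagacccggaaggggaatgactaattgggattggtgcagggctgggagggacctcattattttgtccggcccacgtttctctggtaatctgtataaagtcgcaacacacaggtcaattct
Gstm2, chr2:198316918-198317167, minus strand: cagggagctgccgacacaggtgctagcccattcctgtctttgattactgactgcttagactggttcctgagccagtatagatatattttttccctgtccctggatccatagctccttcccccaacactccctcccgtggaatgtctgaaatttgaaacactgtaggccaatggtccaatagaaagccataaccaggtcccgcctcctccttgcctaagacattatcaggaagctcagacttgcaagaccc
Gstp1, chr1:210769706-210769955, minus strand: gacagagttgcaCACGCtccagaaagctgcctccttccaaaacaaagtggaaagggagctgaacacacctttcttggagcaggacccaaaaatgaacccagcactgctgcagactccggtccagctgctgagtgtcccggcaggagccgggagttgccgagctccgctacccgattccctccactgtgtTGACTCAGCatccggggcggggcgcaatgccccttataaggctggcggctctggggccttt
Gsto1, chr1:256662281-256662530, plus strand: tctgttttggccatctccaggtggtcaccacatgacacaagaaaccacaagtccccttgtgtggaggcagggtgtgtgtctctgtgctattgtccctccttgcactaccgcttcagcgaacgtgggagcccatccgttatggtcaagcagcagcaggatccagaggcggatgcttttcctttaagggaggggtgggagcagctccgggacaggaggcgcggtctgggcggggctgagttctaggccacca

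The antioxidant core was found in the first entry of Gsta3, as TGACTTCGC beginning 17 bases before the start, and in Gstp1, as TGACTCAGC beginning 61 bases before the start. The Gstp1 match overlaps an AP-1 motif. These letters were not in the windows of Gsta4, Gstm1, Gstm2, Gsto1, Gstk1 or Mgst1, nor in the second entry of Gsta3. Of 33469 RefSeq promoter windows of the same length, 10.1% hold TGACNNNGC and 25.9% hold GCGTG. The latter was found 3 times in Gsta4 and 1 time each in Gstp1 and in the second Gsta3 entry. A match is a description of the letters in the window, and binding was not measured.

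The arrays were those of lung. Sftpc, of alveolar type 2 cells, lay between 14.79 and 14.95 on the log2 scale in all 24 rats, and Scgb1a1, of club cells, between 14.62 and 14.97, while the liver genes Alb and Apoa1 did not exceed 6.76 and 5.12. Array medians lay between 7.26 and 7.32. The array of rat 302 (sand) stood apart, with a highest correlation with any other array of 0.960. Heart muscle markers were high in rat 104 (air), with a mean of 9.39 over 9 genes, and in rat 302, with 9.15. They were also higher in rats 203 and 204 (smoke), at 7.32 and 7.05, than in their mates 201 and 205, at 5.53 and 5.42. In a lobe of mixed cells, a change in the number of cells of a type and a change in RNA per cell cannot be told apart.

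With smoke, 4 of the 10 genes rose and 0 fell when the 12 smoke rats were set against the 12 rats without smoke, averaged over the 3 chamber conditions. Gsta3 and Gstm1 changed most, and Gsto1 and Mgst2 by less. The other 6 did not pass, although Gsta4 and Gstm2 had lower means in smoke. The test was limma across all 14217 genes with Benjamini-Hochberg adjustment, and a gene is called at an adjusted p under 0.05. In this comparison 6.39% of all genes were called, 2.69% of them higher and 3.7% lower, each as a share of all genes. The median log2 difference was 0.094 over the 10 members and -0.021 over all genes. The arms of 12 overlapped for every member, and for all but 0.113% of genes.

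**Figure D1:**
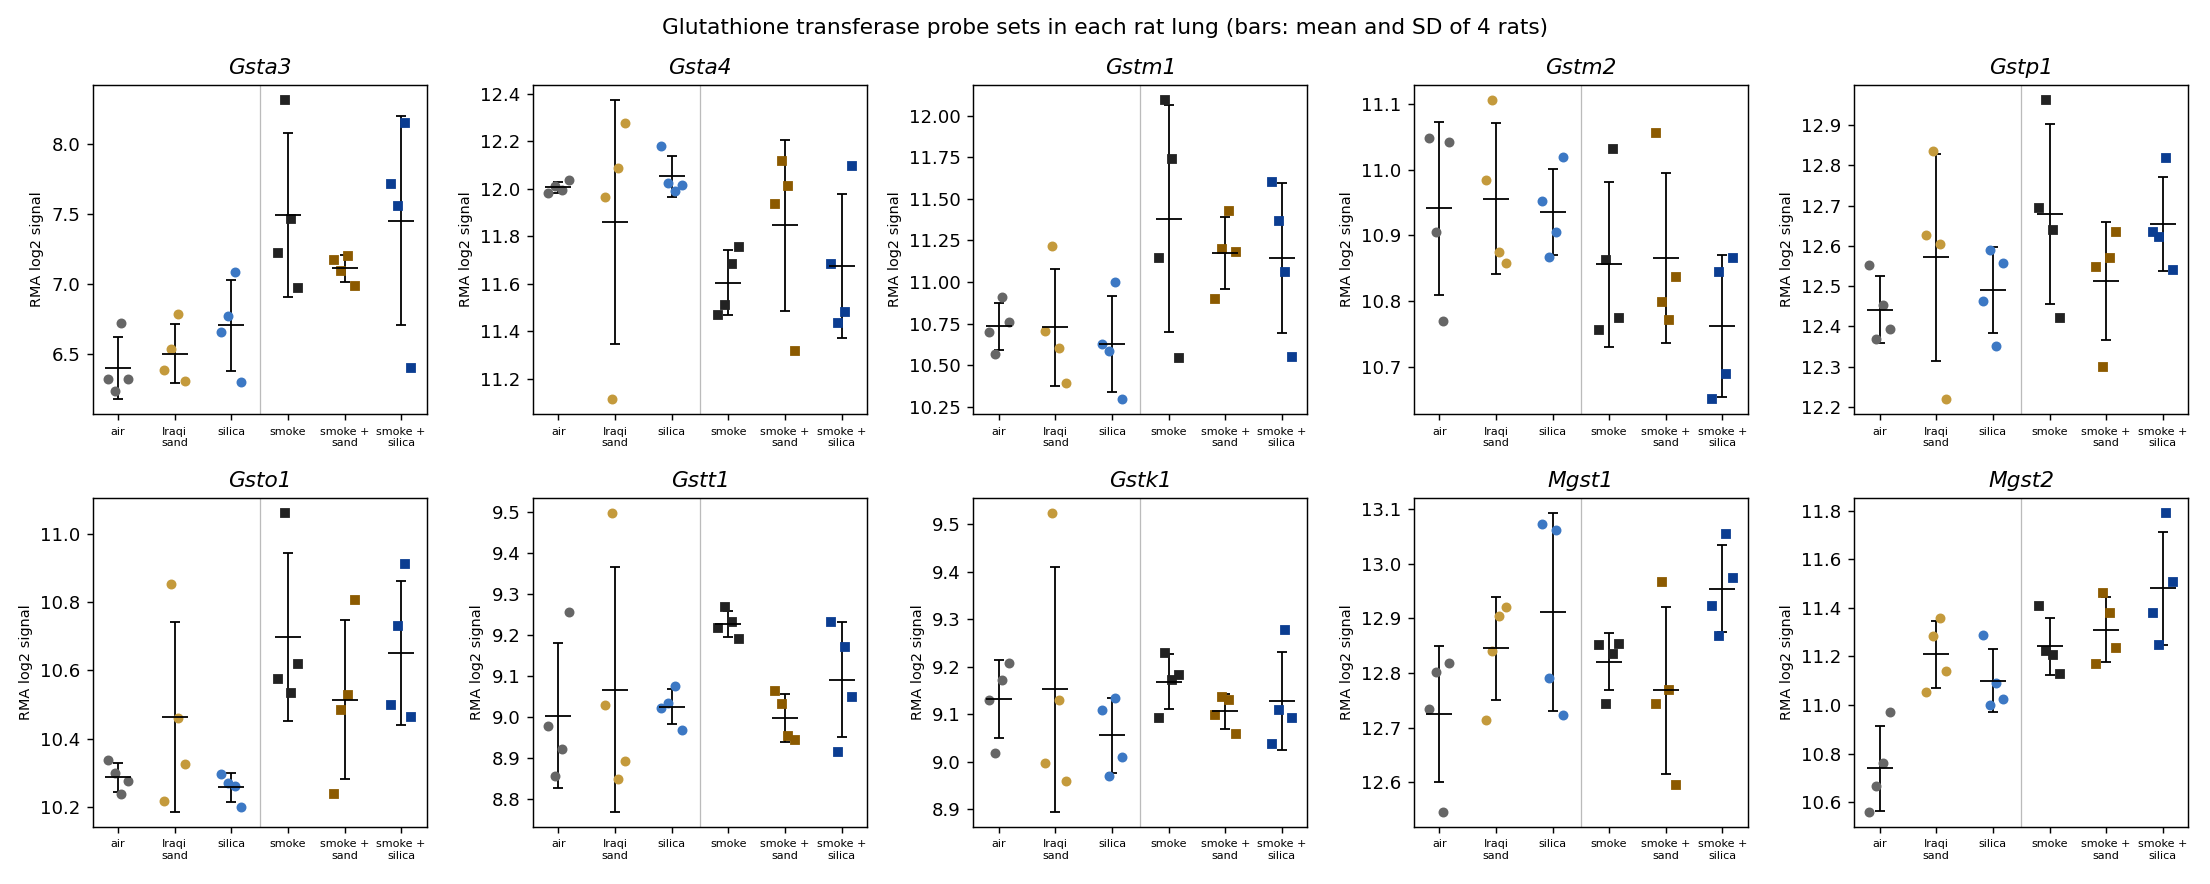
RMA log2 signal (vertical axis) of each of the 10 genes in each rat, by exposure group (horizontal axis). Circles are rats without smoke and squares rats with smoke, and bars give the mean and SD of 4 rats. Each panel has its own vertical range. Mgst2 is lowest in the air group, where the 4 rats lie between 10.56 and 10.97, and Gsta3 reaches 8.32 in the smoke group.

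Gsta3, an alpha-class enzyme known for conjugating reactive aldehydes and epoxides, changed most. Its log2 signal in the air rats was 6.32, 6.23, 6.72 and 6.32 (rats 102, 103, 104 and 105). It was 6.38, 6.53, 6.78 and 6.31 in the sand rats (301, 302, 304 and 305) and 6.65, 6.77, 7.09 and 6.30 in the silica rats (501, 502, 503 and 504). The groups without smoke overlapped one another. In smoke it was 7.22, 8.32, 7.46 and 6.97 (rats 201, 203, 204 and 205). With sand added it was 7.17, 7.09, 7.20 and 6.98 (402, 404, 405 and 406), and with silica added 7.71, 7.56, 8.15 and 6.40 (602, 603, 604 and 605). Of the 12 smoke rats, 9 lay above the highest rat without smoke, and rat 605 lay among the air rats. Averaged over the chambers, Gsta3 was 1.76-fold higher, a log2 difference of 0.82 ± 0.16 (SE, limma adjusted p = 0.0044). From the lowest mean up, the groups ran air (6.40), sand (6.50), silica (6.70), smoke plus sand (7.11), smoke plus silica (7.45) and smoke (7.49).

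Gsta4, the alpha enzyme known for its preference for 4-hydroxynonenal, a product of lipid peroxidation, had lower means in smoke without particles and with silica. In air the 4 rats were close together at 11.98, 12.01, 11.99 and 12.04. In smoke they were at 11.47, 11.51, 11.69 and 11.76, below every air rat, as in 5.08% of all genes. The mean difference without particles was -0.40 ± 0.19 (SE, limma adjusted p = 0.505). Rat 302 of the sand group was the lowest of all 24 at 11.12, against 11.97 to 12.28 in its group mates. Sand and smoke plus sand had means of 11.86 and 11.85, a difference of -0.02 ± 0.19 (SE, limma adjusted p = 0.97). This sand difference depended on single rats, at -0.26 without rat 302 and 0.16 without rat 406. With silica the smoke difference was -0.38 ± 0.19 (SE, limma adjusted p = 0.653). The average difference of -0.27 ± 0.11 (SE) did not pass (limma adjusted p = 0.149). Without rat 302 the average difference was -0.35 and passed (limma adjusted p = 0.0138), and it also passed with array weights (-0.31, limma adjusted p = 0.0039).

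Gstm1, a mu-class enzyme that conjugates epoxides of polycyclic hydrocarbons, was between 10.30 and 11.22 in the 12 rats without smoke, with a median of 10.66. In smoke it was 11.14, 12.09, 11.74 and 10.55, in smoke plus sand 10.90, 11.20, 11.43 and 11.18, and in smoke plus silica 11.60, 11.37, 11.06 and 10.55. Rats 203 and 204 were highest, and rats 205 and 605 lay below the median without smoke. The average rise was 0.54 ± 0.15 (SE, 1.45-fold, limma adjusted p = 0.0373). It lost the call in 15 of the 24 fits that each left out 1 rat, with an adjusted p of up to 0.0699, and without rats 203 and 204 together the difference was 0.36 (limma adjusted p = 0.154).

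Gstm2, another mu enzyme, differed little. Its values ran from 10.77 to 11.11 without smoke (median 10.93) and from 10.65 to 11.06 with smoke (median 10.82). The difference was -0.12 ± 0.05 (SE, limma adjusted p = 0.144). Gstp1, the pi enzyme and a main transferase of lung epithelium, ran from 12.22 to 12.83 without smoke (median 12.51) and from 12.30 to 12.96 with smoke (median 12.63). Its difference was 0.11 ± 0.07 (SE, limma adjusted p = 0.305), with a 95% interval of -0.03 to 0.25. Of the 5 members whose promoter is shown, Gsta3 (first entry) and Gstp1 hold the antioxidant core. Gsta3 passed the test and Gstp1 did not, and Gstm1 and Gsto1 passed without the core in their windows. A part of the core in these results was not tested.

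Gsto1, an omega enzyme that acts as a thioltransferase and reduces dehydroascorbate, rose modestly. It was 10.34, 10.30, 10.24 and 10.28 in air and 10.57, 11.06, 10.53 and 10.62 in smoke. Every smoke rat was above every air rat, as in 4.86% of all genes. Without smoke the 12 rats ran from 10.20 to 10.85 (median 10.29), the highest being rat 302. With smoke they ran from 10.24 to 11.06 (median 10.55). The difference was 0.41 ± 0.14 without particles, 0.39 ± 0.14 with silica and 0.05 ± 0.14 with sand (SE). The limma adjusted p-values were 0.220, 0.368 and 0.848. The sand difference was 0.18 without rat 302 and -0.05 without rat 406. The average rise was 0.28 ± 0.08 (SE, 1.22-fold, limma adjusted p = 0.0339). It lost the call in 10 of the 24 fits without 1 rat, with an adjusted p of up to 0.0629, and without rats 203 and 204 the adjusted p was 0.096.

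Gstt1, a theta enzyme that acts on small halogenated compounds, ran from 8.85 to 9.50 without smoke and from 8.91 to 9.27 with smoke, a difference of 0.07 ± 0.06 (SE, limma adjusted p = 0.493). Gstk1, the kappa enzyme, ran from 8.96 to 9.52 without smoke and from 9.04 to 9.28 with smoke, a difference of 0.02 ± 0.05 (SE, limma adjusted p = 0.841). Rat 302 was the highest of the 24 for both. The 95% intervals were -0.06 to 0.20 for Gstt1 and -0.09 to 0.13 for Gstk1, so larger differences on the log2 scale lay outside them.

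The 2 membrane-bound members differed from each other. Mgst1, an abundant microsomal transferase and peroxidase, ran from 12.55 to 13.07 without smoke and from 12.59 to 13.05 with smoke, a difference of 0.02 ± 0.05 (SE, limma adjusted p = 0.841). Mgst2, which has glutathione transferase and leukotriene C4 synthase activity, was lowest in the air group at 10.56, 10.67, 10.76 and 10.97. Every other group lay above it. Sand rats had 11.05, 11.29, 11.36 and 11.14, and silica rats 11.29, 11.00, 11.09 and 11.02. Smoke rats had 11.41, 11.22, 11.21 and 11.13, smoke plus sand rats 11.17, 11.46, 11.38 and 11.24, and smoke plus silica rats 11.38, 11.25, 11.79 and 11.50. The groups other than air overlapped one another. The average smoke rise was 0.33 ± 0.06 (SE, 1.26-fold, limma adjusted p = 0.0038), and all 12 smoke rats lay above the median of the others.

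**Figure D2:**
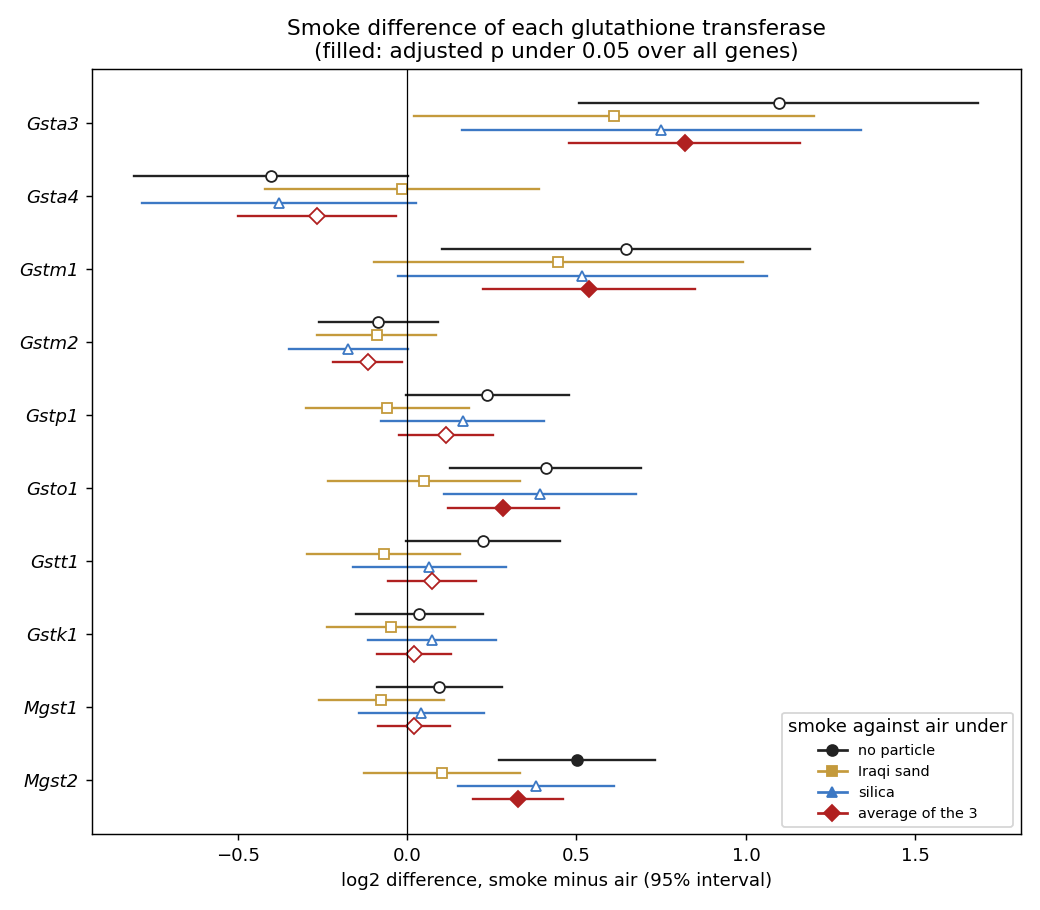
Log2 difference between smoke and air (horizontal axis) of each gene (vertical axis), within each chamber condition and averaged over the 3, from the limma fit. Points are estimates, lines 95% intervals, and filled points have an adjusted p under 0.05 over all genes. Filled points are the averages of Gsta3, Gstm1, Gsto1 and Mgst2, and Mgst2 with no particle, at 0.50.

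Smoke without particles, 4 rats against 4, asks what smoke alone did. Mgst2 rose by 0.50 ± 0.11 (SE, 1.42-fold, limma adjusted p = 0.0290) and was the member called, where 0.893% of all genes were called. Gsta3 differed by more, 1.10 ± 0.28 (SE, 2.14-fold), with a limma adjusted p of 0.0747. Without rats 203 and 204 it was 0.70 (limma adjusted p = 0.728). It passed with array weights (1.19, limma adjusted p = 0.0023), without rats 302, 104 and 604 (1.21, limma adjusted p = 0.0361), and without any 1 of rats 205, 604 and 605. Rats 604 and 605 are outside this comparison, so leaving either out kept 1.10 and lowered the SE to 0.26 and 0.22. Gsta3 did not pass in 21 of the 24 fits without 1 rat (limma adjusted p up to 0.290). Nor did it pass with only these groups fitted or with the RNA integrity covariate (limma adjusted p = 0.0925 and 0.314). Gstm1 differed by 0.65 ± 0.26 (SE, adjusted p = 0.36) and Gsto1 by 0.41 ± 0.14 (SE, adjusted p = 0.22), both in limma. The Gstm1 difference was 0.41 without rat 203 and 0.11 without rats 203 and 204 (limma adjusted p = 0.885 and 1.00). In Gsta3, Gsto1 and Mgst2 every smoke rat lay above every air rat, which 4.86% of all genes showed, and in Gsta4 every smoke rat lay below, which 5.08% showed. The Mgst2 call was lost when any 1 of rats 102, 103, 104, 201, 203 and 204 was left out, with a limma adjusted p of up to 0.138. It was also lost when only these 2 groups were fitted (limma adjusted p = 0.0508), where Gsta4 fell by 0.40 (limma adjusted p = 0.0382). In the fit of all 24 arrays the same Gsta4 difference did not pass (limma adjusted p = 0.505).

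In rats that also breathed sand, 0 members were called by limma, where 1.29% of all genes were. An unadjusted p under 0.05 was found for 1 of the 10, against 20.5% of all genes. That gene was Gsta3, at 0.61 ± 0.28 (SE, limma adjusted p = 0.229), with no overlap between the groups; 2.06% of all genes did not overlap in that direction. Mgst2 differed by 0.10 ± 0.11 (SE, limma adjusted p = 0.60), and its sand rats were already at 11.05 to 11.36. In rats that also breathed silica, 0 members were called, where 0.00703% of all genes were. An unadjusted p under 0.05 was found for 3 of the 10, against 8.17% of all genes. These were Gsta3 at 0.75 ± 0.28 (SE), Gsto1 at 0.39 ± 0.14 and Mgst2 at 0.38 ± 0.11, with limma adjusted p-values of 0.439, 0.368 and 0.242. The groups did not overlap in Gsto1, which was higher with smoke as in 2.8% of all genes, and in Gstm2, which was lower at -0.17 ± 0.08 (SE, limma adjusted p = 0.622) as in 4.35%. The Gstm2 groups all but touched, with smoke rat 605 at 10.866 and silica rat 502 at 10.8663.

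The test of whether smoke acted differently with a particle present found 0 members by limma for sand and 0 for silica, where 0.00703% and 0% of all genes were called. With sand, the median of the 10 interaction estimates was -0.25, against a median over all genes of -0.042. The sand term depended on rat 302. Without it the smoke difference in sand turned to 0.030 for Gstp1, 0.075 for Gstt1 and 0.077 for Gstk1. That of Gsta4 moved the other way, to -0.26. Mgst2 had the smallest unadjusted p of the sand interaction, with -0.40 ± 0.16 (SE, limma adjusted p = 0.533, unadjusted p = 0.0184). With silica, the median of the 10 interaction estimates was -0.081, against -0.004 over all genes. An unadjusted p under 0.05 was found for 0 members with silica, against 2.24% of all genes. With sand it was 1 member, against 8.84%. Both interactions share the air and smoke groups.

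Without smoke, no particle gave a call among the members. Against air, 0 members were called for sand, where 0.0281% of all genes were, and 0 for silica, where 0.141% were. The unadjusted p was under 0.05 for 1 member with sand, against 10.2% of all genes, and for 2 with silica, against 5% of all genes. Mgst2 was higher by 0.47 ± 0.11 with sand (SE, limma adjusted p = 0.117) and by 0.36 ± 0.11 with silica (SE, limma adjusted p = 0.478). In both, every particle rat lay above every air rat, which 3.4% and 3.24% of all genes showed. Mgst1 differed by 0.19 ± 0.09 with silica (SE, limma adjusted p = 0.98). The same 4 air rats serve in both comparisons and in that of smoke alone.

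On top of smoke, 0 members were called for sand and 0 for silica, where 0.0141% of all genes were called in each. In each, 1 member had an unadjusted p under 0.05, against 3.83% of all genes with sand and 8.29% with silica. These were Gstt1 with sand, at -0.23 ± 0.11 (SE, limma adjusted p = 1.00), and Mgst2 with silica, at 0.24 ± 0.11 (SE, limma adjusted p = 0.573). With sand the Gstt1 groups did not overlap, as in 3.41% of all genes, and with silica those of Mgst1 did not, higher as in 4.29%. Averaged over air and smoke, 0 members were called for either particle, where 0% of all genes were called for sand and 0.345% for silica. The unadjusted p was under 0.05 for 1 member with sand, against 5.22% of all genes, and for 2 with silica, against 11.7%. Mgst2 differed by 0.27 ± 0.08 with sand (SE, limma adjusted p = 0.503) and by 0.30 ± 0.08 with silica (SE, limma adjusted p = 0.105), and Mgst1 by 0.16 ± 0.06 with silica (SE, limma adjusted p = 0.314).

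The combined exposures were set against air alone. With smoke plus sand, Mgst2 rose by 0.57 ± 0.11 (SE, 1.49-fold, limma adjusted p = 0.0124), and was the member called where 0.978% of all genes were. Gsta3 differed by 0.71 ± 0.28 (SE, limma adjusted p = 0.309), and passed with only these groups fitted (0.71, limma adjusted p = 0.0184) and with array weights (0.81, limma adjusted p = 0.0307). The Mgst2 call was lost without rat 102 or rat 404, with a limma adjusted p of up to 0.0602. With smoke plus silica, 3.77% of all genes were called, and Mgst2 rose by 0.74 ± 0.11 (SE, 1.67-fold, limma adjusted p = 5.0e-04) and Gsta3 by 1.06 ± 0.28 (SE, 2.08-fold, limma adjusted p = 0.0393). The Gsta3 call was lost when any 1 of the 4 air rats or of rats 602, 603 and 604 was left out, with a limma adjusted p of up to 0.178. Both comparisons use the same air rats. With smoke plus sand every rat lay above every air rat in Gsta3 and Mgst2, as 5.59% of all genes did, and with smoke plus silica in Gsto1, Mgst1 and Mgst2, as 7.64% did.

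**Figure D3:**
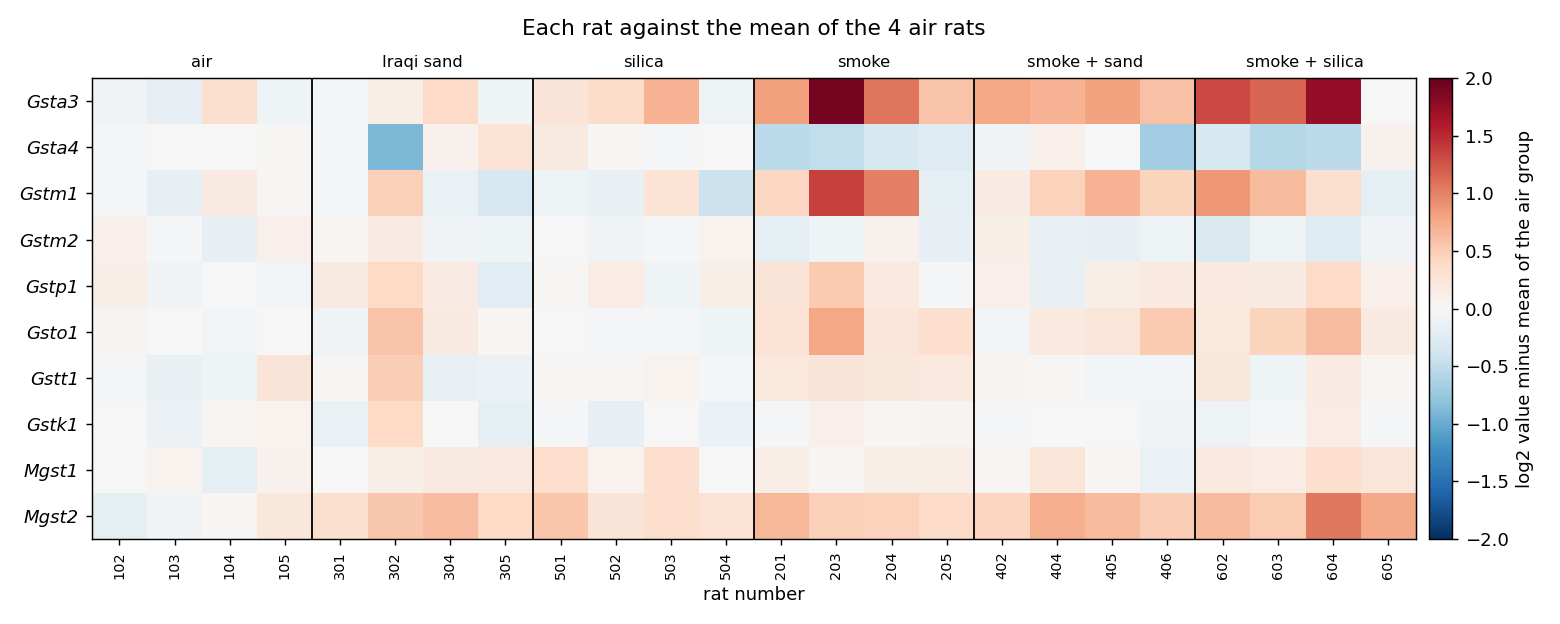
Log2 value of each gene (rows) in each rat (columns, by label number and group) minus the mean of the 4 air rats, on a colour scale from -2 to 2. Rat 302 of the sand group is low in Gsta4 and high in 6 members, and rats 203 and 604 are the darkest in Gsta3.

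Individual rats differed as much as groups in some members. The residual SD within groups was 0.43 for Gsta3 and 0.40 for Gstm1, above 95.3% and 93.7% of all genes, but 0.11 for Gstm2. Rats 203, 302 and 604 each lay above all mates of their group in 6 of the 10 members. Among all pairs of members, Gsta3 and Gstm1 had the highest correlation over the 24 rats (Pearson r = 0.80, and 0.72 on deviations from the group means). Gsta4 and Gsto1 had the lowest (r = -0.80, and -0.71 on deviations). These are descriptions over rats that share 6 groups.

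Markers of several cell types moved with smoke as well. Of the 9 measured macrophage markers, 7 rose in the average smoke comparison, among them Cd68 by 0.94 and Gpnmb by 1.12 on the log2 scale. The mean of the 9 was between 9.80 and 10.36 in air, 10.14 and 10.66 in sand, and 10.33 and 10.81 in silica. It was between 10.89 and 11.42 in smoke, 10.56 and 11.24 in smoke plus sand, and 11.06 and 11.85 in smoke plus silica. Mgst2 was lowest in the air group, as this mean was. The part of macrophage RNA in the Mgst2 result was not tested.

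Other leukocyte and lung cell markers moved too. Of 5 measured neutrophil markers, 2 rose in the average smoke comparison (S100a9 by 1.35 and Cxcr1 by 1.00), and their mean was highest in rat 201, at 10.55. Of 6 T and NK cell markers, 5 fell, with a median of -0.64. Of 5 alveolar type 1 markers, 2 fell (Ager by 0.20 and Aqp5, which is also on the club and secretory list, by 0.24), and of 5 endothelial markers, 1 fell (Cldn5 by 0.36). Their part in the results of the members was not tested.

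Of the 6 measured ciliated cell markers, 1 rose with smoke (Dynlrb2, by 0.65) and 0 fell. Their mean was between 9.44 and 9.57 in air, 9.23 and 9.87 in sand, and 8.87 and 9.53 in silica. It was between 9.29 and 10.55 in smoke, 9.43 and 9.90 in smoke plus sand, and 8.81 and 9.97 in smoke plus silica. Rats 203 and 204, highest in Gstm1, were highest in this mean at 10.55 and 10.24, and rat 605, lowest of the smoke rats in Gsta3, was lowest of all at 8.81. Other rats did not follow this order. Rat 604 had a mean of 9.68 with Gsta3 at 8.15, and rat 302 a mean of 9.87 with Gsta3 at 6.53. Of 11 club and secretory markers, 2 rose (Agr2 and Muc5b) and 2 fell (Cyp4b1 and Aqp5), and rats 203 and 204 were again highest in the mean, at 11.17 and 10.95. Foxj1, which defines ciliated cells, lay between 8.68 and 10.66 over the 24 rats. Rats 203 and 204 also had the higher heart muscle means of their group, given above. The part of airway or heart tissue in the Gsta3, Gstm1 and Gsto1 results was not tested. Without rats 203 and 204, Gsta3 and Mgst2 kept the average smoke call and Gstm1 and Gsto1 lost it.

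**Figure D4:**
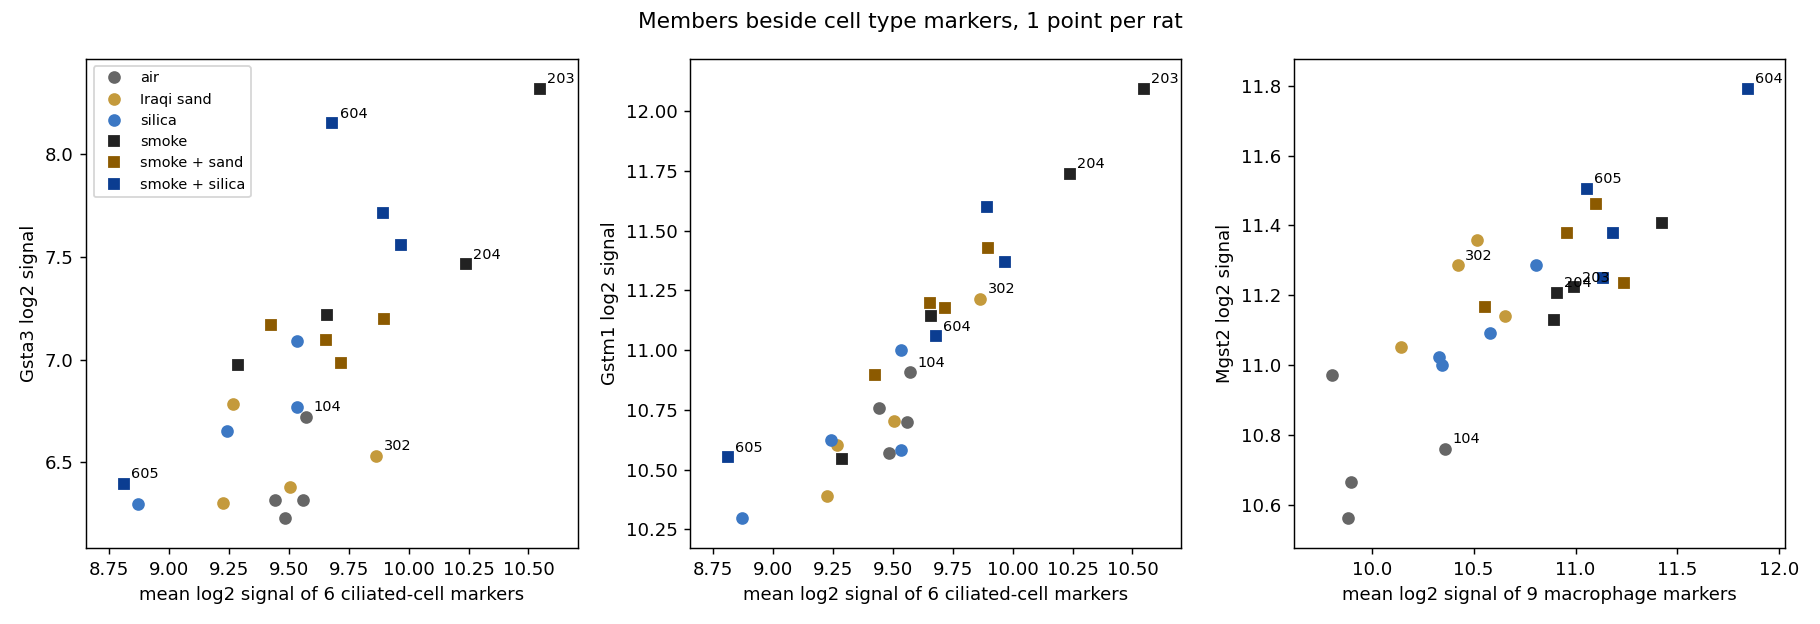
Log2 signal of Gsta3 and Gstm1 against the mean log2 signal of 6 ciliated cell markers, and of Mgst2 against that of 9 macrophage markers, with 1 point per rat; squares are smoke rats. Rats 203 and 204 lie at 10.55 and 10.24 on the ciliated axis, and rat 604 at 11.85 on the macrophage axis with the highest Mgst2.

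By likeness to Mgst2 over the 24 arrays (Pearson r), the nearest genes were Arl11 (0.91), Ctsz (0.90), Lgmn (0.90), Prdx5 (0.90) and Atp5if1 (0.89). Ctsz and Lgmn encode lysosomal proteases, Prdx5 a peroxiredoxin and Atp5if1 an inhibitor of the mitochondrial ATP synthase. On deviations from the group means the correlations were between 0.71 and 0.81.

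The supply of glutathione was followed through 15 measured genes of its synthesis, recycling and NADPH supply. With smoke, 4 rose and 1 fell in the average comparison, where 6.39% of all genes were called. Gclc and Gclm, the subunits of the rate-limiting enzyme of glutathione synthesis, rose by 0.39 ± 0.07 and 0.45 ± 0.11 (SE, limma adjusted p = 0.0029 and 0.0201). Taldo1 and Tkt of the pentose phosphate pathway rose by 0.24 ± 0.06 and 0.26 ± 0.07, and Slc3a2, a subunit of amino acid transporters, fell by 0.19. The median of the 15 was 0.23, against -0.021 over all genes. Of 15 measured genes of mercapturate formation and conjugate export, 1 rose, the exporter Abcc5, by 0.17 ± 0.04 (SE, limma adjusted p = 0.0209). Of 21 measured genes of NRF2 control and its targets, 0 passed in limma in this comparison, although their median difference was 0.20. Nfe2l2, which encodes NRF2, differed by 0.27 ± 0.09 (SE, limma adjusted p = 0.0759). With smoke plus silica against air, 2 of the 21 were called higher, where 3.77% of all genes were called.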

How the data were processed

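Values are log2 signals deposited for 24 arrays (Rat230_2). Per the submitters' processing notes, the authors used RMA: background correction, quantile normalization and a summary over the probes of a set. Its version is not given in the sources used here. RMA compresses differences of dim probe sets, and Gsta3 is the member below the median level. Of 31099 probe sets, 57 controls were left out and 20826 carried 1 gene symbol. The brightest of each gene gave 14217 genes.

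From these, a linear model with 6 group means was fitted with limma 3.58.1 in R 4.3.3 (eBayes, no trend, 18 residual degrees of freedom), two-sided, with Benjamini-Hochberg adjustment over all genes in each of 14 comparisons. The model was also run on simulated data, with independent normal noise and the average smoke comparison alone. That run did not cover arrays that stand apart or comparisons of 4 rats against 4. No filter was set on dim probe sets. Each array is another animal, so the error behind a p-value is that between rats; the number of arrays limits the precision. No batch was in the labels.

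The rule for named genes took all 10 members, the genes of other lists that passed or had up to the 4 largest moderated t for average smoke, and the 5 genes most like Mgst2. The members, lists and the main tests were chosen with earlier results of these data known. The alternatives were other shrinkage, a filter on dim genes, the mean of probe sets, only the compared groups, array weights, centring, a further quantile normalization, a covariate for RNA integrity (19 arrays with a value), leaving out rats 302, 104 and 604, and leaving out each rat in turn. Added after seeing the data were fits without rats 203 and 204, without these 5 rats, and of those 19 arrays with no covariate. Protein sequences and the promoters of Gstt1 and Mgst2 were not used here.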

Additional observations from a re-analysis of the deposited data

Results flagged for a closer look

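Of 60 sets of 4 rats examined (10 members in 6 groups), 2 held a rat whose gap to its nearest mate, as a share of the range of the group, exceeded Dixon's critical value at 95%; chance gives about 1 in 20. Both were rat 203 of the smoke group. Its Gsto1 was 11.06, against 10.53 to 10.62 in its mates, a gap of 0.838 of the range. Its Mgst1 was 12.74, against 12.84 to 12.85 in its mates, a gap of 0.841 of the range. What set this rat apart was not tested.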

How the results depend on the processing

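No paired analysis was possible because the rat numbers of the labels differ between all groups. Over 60 values of single members, 704 refits under 12 other settings kept direction and call in 645, lost the call in 20 and gained it in 12. In 27 the sign turned, in each case for a value that was not called (0 called values turned); the cause was not tested. The average rise of Gsta3 was called in every setting that tested it (0.65 to 0.89) and in all 24 fits without 1 rat; it was not tested with dim genes filtered. The average rise of Mgst2 was lost in 1 setting, with the RNA integrity number as a covariate (adjusted p = 0.0507).

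Members called in the average smoke comparison went from 4 to 1 with the integrity covariate on 19 arrays, 2 on the same 19 without it and 2 without rats 203 and 204; fewer arrays entered these fits. It was 3 with dim genes filtered and 3 without all 5 rats. It was 5 with array weights and 5 without rats 302, 104 and 604, where Gsta4 was called lower (adjusted p = 0.0039 and 0.0336). For smoke alone the count went from 1 to 5 with array weights (4 higher and Gsta4 lower), 2 without rats 302, 104 and 604, and 0 with the covariate, on the 19 arrays, without rats 203 and 204, and without all 5 rats. For smoke plus sand it went from 1 to 2 with weights and with only the compared groups (Gsta3 gained in both), and 0 with the covariate and on the 19 arrays. For smoke plus silica it went from 2 to 4 with weights (3 higher and Gsta4 lower), and 1 with dim genes filtered (Gsta3 untested), with the covariate, on the 19 arrays, without the 3 rats, without the 5 rats and with only the compared groups. With weights, sand alone, sand averaged and silica averaged went from 0 to 1. Leaving out 1 rat gave 2 to 5 for the average, 0 to 2 for smoke alone, 0 to 1 for smoke plus sand, 1 to 3 for smoke plus silica and 0 to 1 for silica averaged. The number called of all 14217 genes moved with the setting too. With weights it went from 127 to 1119 for smoke alone, and from 536 to 2477 for smoke plus silica. It went from 139 to 1172 for smoke plus sand, 4 to 201 for sand alone and 49 to 843 for silica averaged. For the average it went from 908 to 210 with the covariate, 246 on the 19 arrays and 410 without rats 203 and 204. For smoke alone it was 279 without rats 302, 104 and 604, and 42 with the covariate.

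The turned log2 differences were as follows. With array weights, smoke in sand gave 0.0899 for Gstt1 and 0.05003 for Gstk1, and smoke plus sand 0.00541 and 0.0020. Centring gave 0.0025 for Gstk1 in smoke plus silica. Quantile normalization again gave 0.012 for Gsta4 in smoke in sand and 0.017 for Gstt1 in smoke plus sand. The covariate gave 0.16 for Gsta4 and -0.046 for Gsto1 in smoke in sand, 0.035 for Gsta4 in smoke plus sand, and -0.016 for Gstt1 and 0.024 for Gstk1 in smoke plus silica. The 19 arrays gave 0.16 for Gsta4 and -0.047 for Gsto1 in smoke in sand, 0.011 for Gsta4 and 0.0030 for Gstk1 in smoke plus sand, and 0.040 for Gstk1 in smoke plus silica. Without 3 and without 5 rats, smoke in sand gave 0.030 for Gstp1, 0.075 for Gstt1 and 0.077 for Gstk1, smoke plus sand -0.016 for Mgst1, and the average -0.0113 and -0.000772 for Mgst1.

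In fits that left out 1 rat, these values ran on both sides of 0. For smoke in sand the ranges were -0.264 to 0.161 for Gsta4, -0.175 to 0.0297 for Gstp1, -0.0471 to 0.180 for Gsto1, -0.142 to 0.0750 for Gstt1 and -0.111 to 0.0767 for Gstk1. For smoke plus sand they were -0.251 to 0.0151 for Gsta4, -0.0549 to 0.0789 for Gstt1 and -0.0228 to 0.101 for Mgst1, and for smoke plus silica -0.0528 to 0.0269 for Gstk1. The average ran from -0.000746 to 0.0619 for Gstk1 and -0.00172 to 0.0397 for Mgst1, smoke alone from -0.00145 to 0.0622 for Gstk1, and smoke in silica from -0.0208 to 0.0957 for Mgst1.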

Other observations

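The array holds 21 further measured glutathione transferases and related proteins of the 26 listed. In the average smoke comparison 1 rose and 3 fell, where 6.39% of all genes were called. Gsta1, an alpha-class enzyme, rose by 0.41 ± 0.06 (SE, 1.32-fold, limma adjusted p = 1.95e-04), from 12.02 to 12.54 in the 12 rats without smoke (median 12.25) to 12.31 to 12.85 with smoke (median 12.66). It also rose in smoke alone, by 0.54 ± 0.10 (SE, limma adjusted p = 0.0076), where 0.893% of all genes were called. Its groups did not overlap there, as in 4.86% of all genes. Clic3, a chloride channel protein with a glutathione transferase fold, fell by 0.32 ± 0.06 (SE, limma adjusted p = 0.0046), and the mu-class genes Gstm4 and Gstm5 fell by 0.18 ± 0.05 and 0.40 ± 0.12 (SE, limma adjusted p = 0.0384 and 0.0470). In this fit the mu class held both a gene called higher, Gstm1, and genes called lower. The Gstm1 call was lost in 15 of the 24 fits without 1 rat. Whether the calls of Gsta1, Clic3, Gstm4 and Gstm5 hold under the other settings was not tested. A probe set shared by Gsta5 and Gsta2 differed by -0.03 ± 0.05 (SE, limma adjusted p = 0.828, among 10216 probe sets tested apart). Genes of the alpha and mu classes are close in sequence, and cross-hybridisation between their probe sets was not tested.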
